A study of Macaca mulatta with 10 samples.

Results

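The glycolytic enzymes described here were HK1, GPI, PFKL, ALDOA, TPI1, GAPDH, PGK1, ENO1, PKM and LDHA, chosen by symbol so that nearly every step from glucose to lactate is represented by its widely expressed enzyme. They were 10 of the 26484 genes in the count table, and all 10 passed the filter of 10 counts in all that left 14168 genes to test. The count table does not pair symbols with coordinates, and positions are not given here. The libraries came from Tr1 cells, the regulatory CD4+ T cells that secrete interleukin-10, sorted from rhesus macaque blood as CD4+CD49b+LAG3+ cells, with 1 library per monkey. The comparison asked whether transcripts of these enzymes differed between Tr1 cells of monkeys that had received apoptotic donor leukocytes (ADL) and of monkeys that had not.

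Cohort B held the 5 monkeys without ADL infusion, named 13EP12, 13EP8, 14HP26, 14HP31 and 15CP6, and Cohort C held the 5 monkeys with ADL infusion, named 13EP5, 14HP33, 14HP24, 15CP1 and 15CP4. Both cohorts had streptozotocin-induced diabetes, an intraportal islet allograft from a donor sharing a DRB allele, and transient immunosuppression with anti-CD40 antibody 2C10R4, rapamycin, tocilizumab and etanercept, so no group was untreated. Per the labels, blood was taken at sacrifice, at rejection in Cohort B and at the scheduled study end point in Cohort C. ADL infusion, graft status and time after transplantation therefore cannot be told apart. The cells were frozen, thawed and kept overnight in culture medium before the sort. The labels give no age per monkey.

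Glycolysis splits glucose into pyruvate and yields ATP and NADH without oxygen. Hexokinase and phosphofructokinase commit the sugar to the pathway, and the enzymes from aldolase to enolase rearrange and oxidize the trioses. Pyruvate kinase makes pyruvate, which lactate dehydrogenase interconverts with lactate. Activated T cells raise glycolysis as they grow and divide, and rapamycin inhibits mTOR, a kinase that promotes it. In bulk RNA, fewer cells of a type and less RNA per cell cannot be told apart.

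Total counts ranged from 6076 in 14HP31 to 5895609 in 15CP1, and only 13EP12, 13EP8, 13EP5 and 15CP1 exceeded 1000000. In 14HP33, genes of the MTRNR2L family, nuclear copies of mitochondrial ribosomal RNA, took 87.0% of counts, against 3.09% to 43.4% in the other 9 libraries. Of 7 T cell genes in the table (CD3D, CD3E, CD3G, CD2, CD4, LCK and CD28), all 7 were counted in each of the 4 libraries above 1000000, 4 in 15CP6 and in 14HP24, 2 in 14HP26, 1 in 14HP33 and 0 in 14HP31 and 15CP4. The sort markers were low: LAG3 had 10, 16 and 12 counts in 13EP12, 13EP5 and 15CP1 and 0 in every other library, and ITGA2, which encodes CD49b, had at most 37. Counts from 8 monocyte genes summed to 1472 in 13EP12, 1568 in 13EP8, 593 in 13EP5 and 6693 in 15CP1. Per 1000000 counts of the library these were 1236, 1126, 177 and 1135, so only 13EP5 stood lower. Counts from 5 platelet genes summed to 885 in 13EP5 and at most 26 elsewhere. B cell genes summed to at most 295 counts, CD8 and NK cell genes to at most 392, and erythroid genes to at most 188, the last in 15CP6. Per 1000000 counts, CD8 and NK cell genes stood at 217 and 97.0 in 13EP12 and 13EP8 and at 32.3 and 66.5 in 13EP5 and 15CP1. All 6 had a lower fitted level in Cohort C, against 6582 of the 14168 genes tested. Their median log2 fold change was -2.26, and none had an adjusted p under 0.05. Fitted to the 4 libraries above 1000000 counts, 5 of the 6 were lower, and NCAM1 was higher at 1.37 (SE 1.92). The part of these cells in the results below was not tested beyond the values given there.

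Taken as a sum, the glycolytic enzymes held a share of the counts that was somewhat higher in the deep libraries of Cohort C than in those of Cohort B. They received 1465 counts per 1000000 counts of the library in 13EP12 (95% Wilson interval 1398 to 1535) and 1631 in 13EP8 (1565 to 1699) of Cohort B. In Cohort C they received 2055 in 13EP5 (2007 to 2104) and 1741 in 15CP1 (1708 to 1775). Both Cohort C values lay above both Cohort B values, and the intervals of 13EP8 and 15CP1 did not overlap. In these 4 libraries, 39.1% of 13274 single genes had cohorts that did not overlap, in either direction. Per count on the 7 T cell genes, the enzymes had 1.08 and 1.53 counts in 13EP12 and 13EP8. The same ratio was 1.71 and 1.45 in 13EP5 and 15CP1, so on that scale the cohorts overlapped. A list of 8 housekeeping genes was also higher in both deep Cohort C libraries, at 16490 and 13640 counts per 1000000 in 13EP5 and 15CP1 against 13129 and 11811 in 13EP12 and 13EP8. In 14HP24 of Cohort C the value was 1577 (1381 to 1802), which lay between those of 13EP12 and 13EP8. The intervals cover counting error only and can understate it, since amplified reads without molecular identifiers are not independent molecules. They leave out variation between monkeys, so intervals that do not overlap say nothing about a difference between cohorts.

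The remaining libraries were lower and were not alike. In Cohort B, 14HP26 gave 913 counts per 1000000 (754 to 1106), 15CP6 gave 523 (460 to 593) and 14HP31 gave 0 of 6076 counts, with an upper Wilson bound of 632 counts per 1000000. At the pooled share of the 4 deepest libraries, 10.9 counts would have fallen on the enzymes in 14HP31. In Cohort C, 14HP33 gave 7 counts, or 7.23 counts per 1000000 (3.50 to 14.9), where the same pooled share would give 1733 counts, or 234 once MTRNR2L genes are left out of every total. In 15CP4 the enzymes held 79 counts, or 1188 counts per 1000000 (954 to 1480), but 76 of the 79 were PFKL. The summed share thus overlapped between cohorts, with the lowest values of both near 0.

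**Figure D1:**
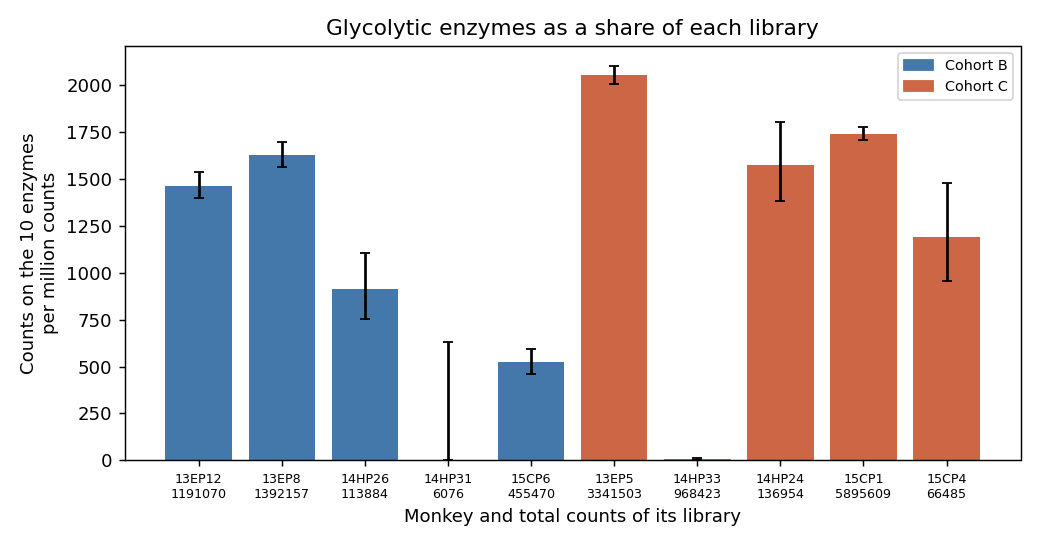
Counts on the 10 glycolytic enzymes in each library, as counts per 1000000 (vertical axis), by monkey, with the library's total counts printed under its name and 95% Wilson intervals as error bars. Bars of 13EP12, 13EP8, 13EP5, 14HP24 and 15CP1 stand between 1465 and 2055 counts per 1000000, while 14HP31 is at 0 and 14HP33 at 7.23.

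Between cohorts, no enzyme passed an adjusted p of 0.05 in edgeR's quasi-likelihood test, and none passed an unadjusted p of 0.01 together with a 1.5-fold change. Over all 14168 genes tested, 0% passed the first threshold and 6.43% the second, and at an unadjusted p of 0.05 the test called 0 of the 10 enzymes against 20.6% of all genes. PFKL passed that last threshold with library size only (p = 0.0429, adjusted p = 0.263) and with edgeR's exact test (p = 0.0400, adjusted p = 0.501). The share of all genes past it in these fits was not counted, so these calls have no background beside them. At an unadjusted p of 0.01 with 1.5-fold the same fits called 928 and 341 genes, against 911 in the quasi-likelihood test. The fitted level was higher in Cohort C for 7 of the 10 enzymes, against 53.5% of all genes, but limma-voom gave 2 of the 10. The median log2 fold change of the enzymes (Cohort C over Cohort B) was 0.49, beside 0.16 for all genes tested. The sample descriptions mark 1 library of Cohort B (15CP6) and 2 of Cohort C (14HP33 and 15CP1) with an index suffix. In the 7 libraries without it, 5 of the 10 enzymes were higher in Cohort C. The median of the enzymes was -0.07 there, beside -0.40 for all genes tested. With a separate exact permutation test on log2(CPM + 1), whose smallest possible p with 5 monkeys per cohort is 0.00794, 0 enzymes passed an unadjusted p of 0.05 against 0.24% of all genes. CPM here is counts per 1000000 after TMM scaling of library size, unless library size alone is named.

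Below, counts are given in the order 13EP12, 13EP8, 14HP26, 14HP31 and 15CP6 for Cohort B and 13EP5, 14HP33, 14HP24, 15CP1 and 15CP4 for Cohort C. HK1, the hexokinase that phosphorylates glucose, had 134, 161, 0, 0 and 8 counts in Cohort B and 474, 0, 10, 787 and 0 in Cohort C. It was above 3 counts in 3 monkeys of each cohort, and the cohorts overlapped. By library size alone it stood at 113 and 116 CPM in 13EP12 and 13EP8 and at 142 and 133 in 13EP5 and 15CP1. GPI, which turns glucose 6-phosphate into fructose 6-phosphate, had 124, 126, 0, 0 and 42 counts in Cohort B and 238, 0, 11, 415 and 0 in Cohort C. Here the deep Cohort C libraries were the lower ones, with 71.2 and 70.4 CPM by library size in 13EP5 and 15CP1 against 104 and 90.5 in 13EP12 and 13EP8. The log2 fold change was 0.49 (SE 2.02) for HK1 and -0.42 (SE 2.03) for GPI, with an adjusted p of 0.9998 for both.

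PFKL, the liver-type subunit of phosphofructokinase, which makes fructose 1,6-bisphosphate at the committing step, stood apart from the other enzymes. It had 23, 19, 0, 0 and 0 counts in Cohort B and 375, 0, 0, 380 and 76 in Cohort C. The Cohort C monkeys were therefore split, with 3 libraries above every Cohort B library on the CPM scale and 2 at 0. By library size alone, PFKL stood at 19.3 and 13.6 CPM in 13EP12 and 13EP8, at 112 in 13EP5 and at 64.5 in 15CP1. The 1143 CPM of 15CP4 rested on 76 counts in a library of 66485 counts in which the other 9 enzymes had at most 1 count each.

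The log2 fold change of PFKL was 4.06 (SE 2.29), with an unadjusted p of 0.0765 and an adjusted p of 0.316. On the log2(CPM + 1) scale the mean was 1.67 ± 2.29 (SD, n = 5) in Cohort B and 4.42 ± 4.15 (SD, n = 5) in Cohort C, an exact permutation p of 0.246 (two-sided, adjusted p = 1). Without 15CP4 the log2 fold change was 2.63, and leaving out any single library gave 2.63 to 4.63. In the 8 libraries with at least 100000 counts it was 2.47, and with limma-voom 2.29. In the libraries without an index suffix it was 4.42 (SE 2.91, adjusted p = 0.576). Restricted to the 4 libraries above 1000000 counts, with 2 monkeys per cohort, it was 2.37 (SE 0.94), with an unadjusted p of 0.0272 and an adjusted p of 0.80. In that fit 1 of the 10 enzymes, PFKL, passed an unadjusted p of 0.05, against 5.26% of the 13274 genes tested, and an adjusted p of 0.05 was passed by no enzyme and by 0.00753% of genes. Platelet genes summed to 885 counts in 13EP5 but to 24 in 15CP1 and 0 in 15CP4. Monocyte genes summed to 593, 6693 and 0 in the same libraries, or 177 and 1135 per 1000000 counts in 13EP5 and 15CP1. T cell genes were at 0 in 15CP4 too. The part of these cells in the PFKL counts was not tested.

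ALDOA, the aldolase that splits the hexose bisphosphate, had 320, 198, 0, 0 and 80 counts in Cohort B and 757, 0, 8, 1530 and 0 in Cohort C. Its log2 fold change was -0.03 (SE 1.95), the closest to 0 of the 10 enzymes. TPI1, which interconverts the trioses, had 143, 133, 22, 0 and 39 counts in Cohort B and 187, 5, 0, 382 and 0 in Cohort C. It was above 3 counts in 4 monkeys of Cohort B and 3 of Cohort C, and by library size it stood at 120 and 95.5 CPM in 13EP12 and 13EP8 against 56.0 and 64.8 in 13EP5 and 15CP1. Its log2 fold change was -1.10 (SE 2.04, adjusted p = 0.9998). The table also lists the pseudogenes TPI1P2, with up to 22 counts, and TPI1P3, with up to 21, both in 15CP1, so the split of reads among these copies is uncertain.

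TPI1 was the only enzyme to pass an unadjusted p of 0.05 when the permutation was run on the 8 libraries with at least 100000 counts. There it ranged from 86.3 to 129 CPM in the 4 Cohort B libraries and from 0 to 79.3 in the 4 Cohort C libraries, and the cohorts did not overlap. The mean log2(CPM + 1) was 6.78 ± 0.27 (SD, n = 4) in Cohort B and 4.60 ± 3.07 (SD, n = 4) in Cohort C, with an exact permutation p of 0.0286, the smallest that 70 assignments allow, and an adjusted p of 1. Of all genes, 0.332% passed that threshold. The Cohort C value of 14HP33, 71.2 CPM, rested on 5 counts and a TMM factor of 0.0725, and by library size it was 5.16 CPM. Over all 10 libraries the exact permutation p was 0.190, and 14HP31 and 15CP4, at 0 counts, were the libraries added.

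GAPDH, which oxidizes glyceraldehyde 3-phosphate and reduces NAD+, had 126, 472, 21, 0 and 3 counts in Cohort B and 1019, 0, 43, 1373 and 1 in Cohort C. By library size the deep Cohort C libraries, at 305 and 233 CPM in 13EP5 and 15CP1, lay between 13EP12 at 106 and 13EP8 at 339. PGK1, which makes the first ATP of the pathway, had 73, 138, 0, 0 and 0 counts in Cohort B and 278, 2, 0, 601 and 1 in Cohort C. Their log2 fold changes were 0.50 (SE 1.95) and 0.50 (SE 2.04). Leaving out 13EP8 raised the value for GAPDH to 1.98 and for PGK1 to 1.38, and neither then passed the threshold.

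ENO1, the enolase that makes phosphoenolpyruvate, had 377, 359, 33, 0 and 15 counts in Cohort B and 1282, 0, 18, 1886 and 0 in Cohort C. In the deep libraries it stood at 317 and 258 CPM by library size in Cohort B and slightly higher, at 384 and 320, in Cohort C. Over the 10 libraries its log2 fold change was 0.10 (SE 1.93). An antisense gene, ENO1-AS1, had 34 counts in 13EP5 and 0 elsewhere, and since the counting is not stated to use strand its reads cannot be told apart from those of ENO1. PKM, pyruvate kinase, had 243, 428, 27, 0 and 24 counts in Cohort B and 1782, 0, 92, 1778 and 0 in Cohort C. It reached 533 CPM by library size in 13EP5, against 302 in 15CP1 and 204 and 307 in 13EP12 and 13EP8, and its log2 fold change was 0.94 (SE 1.93). LDHA, the lactate dehydrogenase subunit that favours lactate, had 182, 236, 1, 0 and 27 counts in Cohort B and 475, 0, 34, 1134 and 1 in Cohort C, with a log2 fold change of 0.51 (SE 1.98). Over the 10 libraries the cohorts overlapped for ENO1, PKM and LDHA, each with an adjusted p of 0.9998.

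**Figure D2:**
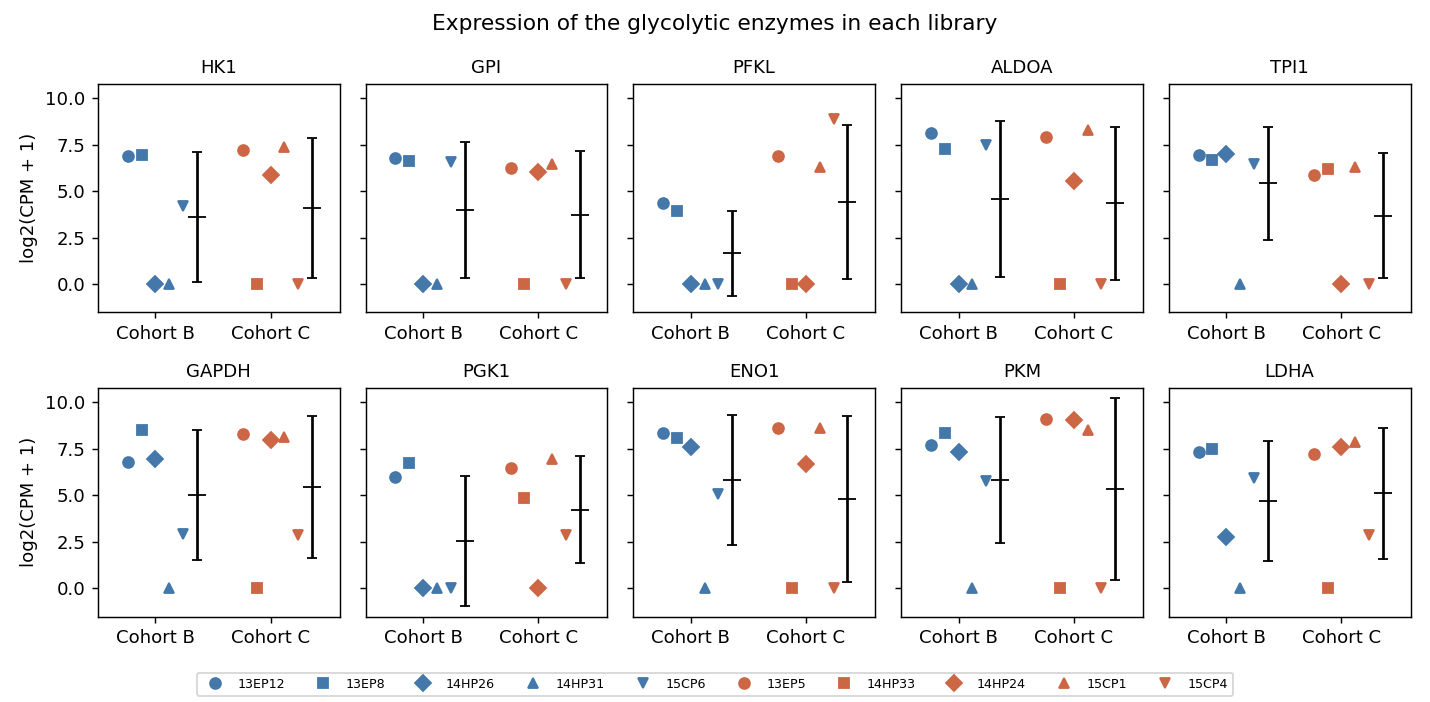
Each panel shows log2(CPM + 1), with CPM after TMM scaling, of 1 enzyme in the 5 Cohort B and the 5 Cohort C libraries, with a symbol per monkey and the mean and SD of the cohort in black. The 2 to 5 libraries at 0 widen the SD of every enzyme, and PFKL in 15CP4 is the highest of its panel from 76 counts.

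Among the 4 libraries above 1000000 counts, 5 of the 10 enzymes had cohorts that did not overlap by library size: HK1, PFKL and ENO1 with both Cohort C libraries higher, and GPI and TPI1 with both lower. Of the 13274 genes with at least 10 counts in these libraries, 39.1% had cohorts that did not overlap in either direction. The ratio of the mean CPM in Cohort C to that in Cohort B was 5.36 for PFKL. For the other 9 enzymes it ran from 0.56 for TPI1 to 1.63 for PKM, with 0.73 for GPI and 1.04 for LDHA. In the same libraries PFKL made up 1.32% and 0.84% of the counts on the 10 enzymes in 13EP12 and 13EP8, and 5.46% and 3.70% in 13EP5 and 15CP1. TPI1 made up 8.19% and 5.86% in Cohort B and 2.72% and 3.72% in Cohort C. In the fit to these libraries the median log2 fold change of the 10 enzymes was 0.21, beside 0.32 over all genes tested.

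PGAM1, the phosphoglycerate mutase between PGK1 and ENO1 and the step without a member among the 10 enzymes, had 14, 0, 0, 0 and 0 counts in Cohort B and 324, 0, 0, 417 and 0 in Cohort C. It was thus at 11.8 and 0 CPM by library size in the deep Cohort B libraries and at 97.0 and 70.7 in those of Cohort C. The log2 fold change over the 10 libraries was 3.62 (SE 2.33, adjusted p = 0.444). It was 1.56 with limma-voom and 8.50 without 13EP12, after which PGAM1 was at 0 throughout Cohort B and the value depends on the prior count. It was 3.82 (SE 1.46, unadjusted p = 0.0234, adjusted p = 0.80) over the 4 deep libraries. PFKL and PGAM1 therefore shared a pattern of few or no counts in 13EP12 and 13EP8 and far more in 13EP5 and 15CP1, but in 15CP4 PFKL had 76 counts and PGAM1 had 0.

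**Figure D3:**
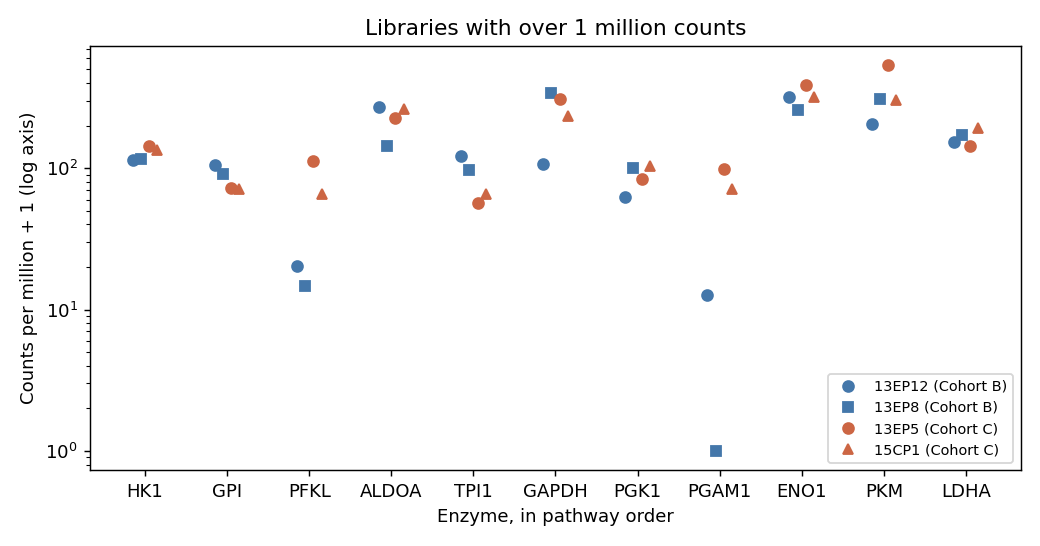
CPM by library size plus 1, on a log axis, of the 10 enzymes and PGAM1 in pathway order for the 4 libraries above 1000000 counts (Cohort B blue, Cohort C orange). PFKL (19.3 and 13.6 against 112 and 64.5 CPM) and PGAM1 (11.8 and 0 against 97.0 and 70.7 CPM) lie furthest apart by cohort. HK1, GPI, TPI1 and ENO1 also do not overlap between cohorts, which held for 39.1% of all genes. GAPDH, from 106 to 339 CPM, and PKM, from 204 to 533, spread widely with cohorts that overlap.

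**Figure D4:**
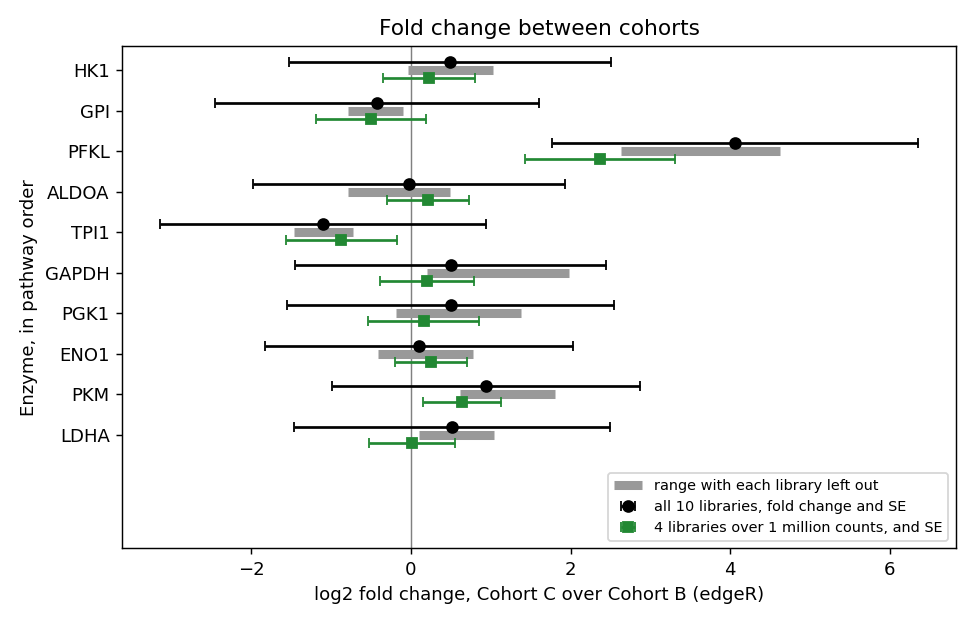
Log2 fold change of each enzyme, Cohort C over Cohort B, from edgeR: black points with SE for all 10 libraries, grey bars for the range with each library left out in turn, and green squares with SE for the 4 libraries above 1000000 counts. PFKL alone lies over 1 SE above 0 in both fits (4.06 ± 2.29 and 2.37 ± 0.94, SE).

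Levels can be compared between enzymes only per length, as FPKM. In the 4 deep libraries ENO1 had the highest median FPKM, 222, followed by GAPDH at 188, ALDOA at 150 and PKM at 138. TPI1 and LDHA followed at 101 and 100.3, then PGK1 at 45.2, HK1 at 27.8, GPI at 15.2 and PFKL at 11.8. The ranges of neighbours overlapped throughout: ENO1 ran from 170 to 1441 and GAPDH from 36.0 to 1037, and PFKL was listed at 0 in 13EP12 and at 175 in 13EP5. HK1, GPI and PFKL, the enzymes of the steps before aldolase, thus had the 3 lowest medians.

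The FPKM table did not track the counts in every library. Of the 100 values for 10 enzymes in 10 libraries, 60 were above 3 counts, and 9 of these were listed at 0 FPKM, among them GAPDH in 14HP24 with 43 counts. In 13EP5 the median ratio of FPKM to CPM over the enzymes was 3.22, against 0.44 to 0.53 in 13EP12, 13EP8 and 15CP1. PKM, with 1782 and 1778 counts in 13EP5 and 15CP1, was listed at 1754 and 153 FPKM. In limma on log2(FPKM + 1), no enzyme passed an adjusted p of 0.05 among 10307 genes. PFKL was the only enzyme past an unadjusted threshold of 0.05, against 0.281% of genes. It was listed at 0, 4.22, 0, 0 and 0 FPKM in Cohort B and 175, 0, 0, 19.5 and 572 in Cohort C. The limma difference was 3.72 (SE 1.70) on that scale, with an unadjusted p of 0.0445 and an adjusted p of 0.992. It stayed past the unadjusted threshold in 5 of 13 alternatives and not in the other 8, which include leaving out 13EP12, 14HP26, 14HP31, 15CP6, 13EP5, 15CP1 or 15CP4.

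The enzymes varied together over the libraries. Over the 10 libraries, the Pearson correlation of log2(CPM + 1) between pairs of the 9 enzymes other than PFKL ran from 0.28 to 0.99, and PFKL correlated with them at -0.01 to 0.65. The mean over the 10 enzymes correlated with log10 total counts at 0.80. The genes most like that mean were NIN at 0.982, PNISR and STAG2 at 0.980, ARNT at 0.979 and COPB2 at 0.972, among 4280 genes with over 3 counts in at least 5 libraries. These correlations describe libraries that share their depth and their zeros: the median over those 4280 genes was 0.77, and 430 of them exceeded 0.9.

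Lists of the wider pathway gave no gene with an adjusted p under 0.05: 54 of 60 listed genes were tested, 30 with a higher fitted level in Cohort C and 24 with a lower one, and 7 had an unadjusted p under 0.05, against 20.6% of all genes. Of the other isoforms, 13 of 18 were tested, 9 higher and 4 lower, with a median log2 fold change of 0.63. LDHB, the lactate dehydrogenase subunit that favours pyruvate, had 264, 166, 20, 0 and 229 counts in Cohort B and 777, 0, 133, 1097 and 0 in Cohort C, a log2 fold change of 0.32 (SE 1.91). The log2 ratio of LDHA to LDHB counts was -0.54, 0.51 and -3.08 in 13EP12, 13EP8 and 15CP6 and -0.71, -1.97 and 0.05 in 13EP5, 14HP24 and 15CP1, the libraries with over 3 counts of each, and overlapped between cohorts. ENO2, the neuronal-type enolase, gave 0.28 (SE 2.04) and PFKM, the muscle-type phosphofructokinase subunit, -0.30 (SE 2.06). PFKM had 41 and 113 counts in 13EP12 and 13EP8 and 96 and 72 in 13EP5 and 15CP1, so in the deep libraries it was lower in Cohort C by library size where PFKL was higher: their log2 fold changes there were -1.58 (SE 1.09, adjusted p = 0.80) and 2.37. PFKP, the platelet-type subunit, added after its values were seen, had 5, 8, 0, 0 and 0 counts in Cohort B and 165, 0, 18, 159 and 0 in Cohort C. It was higher in both deep Cohort C libraries, as PFKL was, with a log2 fold change of 3.79 (SE 2.35, adjusted p = 0.409) over the 10 libraries and 2.86 (SE 1.54, adjusted p = 0.80) over the 4 deep ones.

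Of 6 genes for glucose and lactate transport, 3 were higher and 3 lower. SLC2A3, the high-affinity glucose transporter of lymphocytes, gave a log2 fold change of -0.30 (SE 1.96), and SLC16A7, a monocarboxylate transporter, -2.30 (SE 2.13). SLC2A1, the GLUT1 transporter, had 0, 2, 4, 0 and 22 counts in Cohort B and 181, 0, 0, 87 and 0 in Cohort C, with a log2 fold change of 0.02 (SE 2.05) over the 10 libraries and 5.37 (SE 2.14, unadjusted p = 0.0282, adjusted p = 0.80) over the 4 deep ones. In that fit SLC16A7 was lower by -2.52 (SE 0.68, unadjusted p = 0.00327, adjusted p = 0.80). Of the 4 tested genes for the control of fructose 2,6-bisphosphate, the activator of phosphofructokinase, 2 were higher and 2 lower. PFKFB3, which makes it, gave 1.73 (SE 2.12) and PFKFB4 -3.69 (SE 2.31). PFKFB4 had 21 counts in 14HP26, 2 in 15CP6, 35 in 15CP1 and 0 in every other library. Over the 4 deep libraries PFKFB4 turned to 6.19 (SE 4.56, adjusted p = 0.80), and PFKFB3 gave 1.65 (SE 1.08). TIGAR, which removes fructose 2,6-bisphosphate, gave -3.53 (SE 2.19), with 109 counts in 14HP26, and -0.65 (SE 1.08) over the deep libraries.

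Of 13 genes for pyruvate entry into mitochondria, 7 were higher and 6 lower, with a median log2 fold change of 0.05. PDK1, a kinase that inhibits pyruvate dehydrogenase, gave -0.71 (SE 2.01), DLD, the E3 subunit of that complex, 0.50 (SE 2.05) and MPC2, a subunit of the pyruvate carrier, 1.82 (SE 2.12). MPC2 had 40 counts in 14HP24. Over the 4 deep libraries PDK1 gave -0.23 (SE 0.70), while DLD turned to -0.05 (SE 0.80) and MPC2 to -0.34 (SE 1.18). Of 7 pentose phosphate genes, 2 were higher and 5 lower, and TKT, TALDO1 and PGD gave 0.93 (SE 1.998), -0.24 (SE 1.99) and -0.24 (SE 1.98). Of 11 regulators, 7 were higher and 4 lower. HIF1A, a transcription factor that induces glycolytic genes, gave -0.73 (SE 1.97), MTOR -0.997 (SE 2.003) and MAX, the partner of MYC, -0.37 (SE 1.99). None of these genes had an adjusted p under 0.05.

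Of the 7 genes of these lists with an unadjusted p under 0.05, 6 are named because of their values: HK2, PGAM2, SLC16A1, PFKFB2, PDK2 and EGLN2. The other is not reported here, so the direction of these 6 does not stand for all 7. HK2, the inducible hexokinase, had 5 and 93 counts in 13EP5 and 15CP1 and 0 in every other library. SLC16A1, a lactate transporter, had 17 and 46 counts in the same libraries and 0 in every other one. Each of the 6 was counted in no more than 2 libraries, from 19 counts in all for EGLN2 to 115 for PFKFB2. All 6 were at 0 throughout Cohort B, so they passed the count filter through Cohort C alone. By exact permutation none of the 6 passed 0.05, with an unadjusted p of 0.444 for all but PGAM2. In the fit to the 4 deep libraries PFKFB2 kept an unadjusted p under 0.05 (0.0399). The others did not: HK2 0.0762, SLC16A1 0.0918, PDK2 0.152, EGLN2 0.223 and PGAM2 0.241. MYC, a transcription factor that raises glycolytic genes, was chosen after its values were seen: it had 5, 10, 0, 0 and 32 counts in Cohort B and 251, 0, 0, 261 and 0 in Cohort C, with a log2 fold change of 0.63 (SE 2.06) over the 10 libraries and 3.31 (SE 1.27, unadjusted p = 0.0239, adjusted p = 0.80) over the 4 deep ones.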

How the data were processed

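Tr1 cells from 10 rhesus macaques gave 1 RNA-seq library each. The authors aligned reads with HISAT2 2.0.2 to the human hg38 genome, so macaque reads that diverge from it can be lost. The deposited counts per gene were used as they are; the table is named for the Subread package, whose version and options are not given in the sources used here. The deposited FPKM values came, per the authors, from Cuffdiff 2.2.1. Here, counts were fitted with edgeR 4.0.16 (TMM, quasi-likelihood test, Benjamini-Hochberg adjustment over 14168 genes with at least 10 counts in all), in R 4.3.3, and FPKM with limma 3.58.1 on log2(FPKM + 1) where the mean FPKM reached 1. SE is the absolute log2 fold change over the square root of F. Exact permutation tests used log2(CPM + 1). The edgeR, limma and permutation code was tested on simulated data. DESeq2 1.42.0 (poscounts size factors), other filters and scalings and left-out libraries were alternatives.

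The enzymes and gene lists were chosen with earlier results of these data known. Named were all enzymes, PGAM1, the 3 genes of each wider list with the highest mean CPM and any with an adjusted p under 0.05, and the 5 genes most like the enzymes' mean. Total counts per library, 6076 to 5895609, set the precision. Beyond the monkey, the sample descriptions separate replicates by the index suffix. The 2 gene names that occur more than once were kept apart. Wider-list genes named outside this rule are said in the text to be so, and 1 that enters the counts is not reported here.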

Additional observations from a re-analysis of the deposited data

Results flagged for a closer look

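TPI1 in Cohort B was singled out because 14HP31 lay far from the other 4 monkeys on the log2(CPM + 1) scale: its gap to the nearest was 0.918 of the range, above Dixon's 95% critical value of 0.71 for 5 samples. The library had 0 counts of TPI1 among 6076 in all. By library size, 3 counts in 14HP31 would stand at 494 CPM. The other 4 monkeys had 85.6 to 193 CPM of TPI1 on that scale. The library was thus too shallow for its 0 to be told apart from their level. The flag therefore cannot decide whether TPI1 was lower in 14HP31. Of 22 groups of values looked at, TPI1 in Cohort B was the only one past Dixon's critical value, and chance gives about 5% of groups.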

How the results depend on the processing

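No enzyme and no gene of the wider lists passed an adjusted p of 0.05, and no enzyme passed the unadjusted threshold with 1.5-fold, under any of 22 alternatives to the edgeR fit; PFKL could not be tested with filterByExpr. With FPKM, 0 enzymes passed under 13 alternatives. The number of enzymes higher in Cohort C, 7 in all libraries, was 2 with limma-voom, and 4 to 8 with each library left out, the lowest without 13EP5 and without 15CP1. Without 13EP5 and without 15CP1 the medians of the enzymes were -0.04 and -0.11, beside -0.43 and -0.58 for all genes. Across alternatives the median log2 fold change of the enzymes ran from -0.39 (limma-voom, 0.08 for all genes) to 1.03 (without 13EP8, 0.83 for all genes). Scaling by library size only moved the median of all genes from 0.16 to -0.11 and that of the enzymes from 0.49 to 0.29. PFKL, GPI and TPI1 kept their direction in every edgeR, DESeq2 and limma-voom fit that tested them, but in limma on FPKM GPI turned to 1.01, as did ALDOA to 0.55 and GAPDH to -0.86. PFKL passed an unadjusted p of 0.05 with library size only (p = 0.0429, adjusted p = 0.263) and with edgeR's exact test (p = 0.0400, adjusted p = 0.501). The share of all genes past that threshold in these fits was not counted. Its unadjusted FPKM call was lost in 8 of 13 alternatives.

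Directions turned as follows, none with an adjusted p under 0.05. With limma-voom, HK1 was -0.078, GAPDH -0.11, ENO1 -1.31, PKM -0.66 and LDHA -0.045. ENO1 was also -0.15 with library size only, -0.39 with filterByExpr, -1.49 with the replicate block and -0.44 in the 7 libraries without an index suffix, where PGK1 was -0.60. ALDOA was 0.19 with DESeq2 and 0.21 in the 4 libraries above 1000000 counts. The libraries without an index suffix and those above 1000000 counts were added as alternatives after the counts were seen. With each library left out, log2 fold changes ranged from -0.031 to 1.02 for HK1, -0.79 to 0.49 for ALDOA, -0.19 to 1.38 for PGK1 and -0.41 to 0.78 for ENO1. The exact permutation gave 1 enzyme (TPI1) in the libraries with at least 100000 counts and 0 under its other 12 alternatives. The cause of these changes was not tested.

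Over all genes, 911 passed the unadjusted threshold with 1.5-fold, against 22 with DESeq2, 10 with filterByExpr, 341 with edgeR's exact test, 67 with limma-voom, 98 with the index suffix as a covariate, 326 and 117 in libraries above 100000 and 1000000 counts, 27 without the index suffix, and 76 to 695 with each library left out. With the replicate block, 0 genes passed and 6 enzymes were higher, with a median over the enzymes of 0.09 beside 0.15 for all genes. The replicate numbers in the labels are those of different monkeys, and deviations correlated over 0.1 in 1 of 5 same-numbered pairs. An index suffix marks 1 library of Cohort B and 2 of Cohort C, which cannot be fitted alone. Upper quartile scaling could not be fitted, as that quartile was 0 in 5 libraries. Depth limits these results, since 6 libraries held under 1000000 counts.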
